A study of Mus musculus with 6 samples.

Results

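The lysosome is the acidic organelle in which cells break down what they take up, and this account follows 45 of its genes through a culture of mouse bone marrow. The 45 genes were taken by symbol from the 21761 rows of the deposited expression table, where each of them occurs once, and all 45 passed the filter on low values. They comprise 10 glycosidases, 5 sulfatases, 6 lipid enzymes and activators, 5 genes grouped as peptidases, phosphatases and progranulin, 5 membrane proteins, 11 genes of the V-ATPase proton pump and 3 transcription factors of the TFEB family. Cathepsins were left out of the set.

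Bone marrow cells of male C57BL/6J mice were either profiled directly (day 0) or grown for 4 or 7 days in serum-containing RPMI medium of which 20% was supernatant carrying Flt3L, the ligand of the receptor Flt3, made by a transfected SP2/0 line. The labels name no genetic change and no further treatment in any group, and the day 4 and day 7 libraries differ from day 0 in having been cultured as well as in time. Each day has 2 RNA-seq libraries, numbered 2 and 3 at day 0, 1 and 2 after 4 days, and 3 and 4 after 7 days. The submitters call the day 4 cells common myeloid progenitors and the day 7 cells dendritic cells. The labels leave unsaid whether both libraries of a day had their own animal or culture, and p-values here therefore measure only how these libraries spread, which may be technical.

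Markers of these names were mixed. At day 4, the progenitor genes Myb, Kit and Cd34 were at 23.0 and 20.7, 8.34 and 18.1, and 11.6 and 6.13 RPKM (reads in a gene's exons, scaled to exon length and library total), Gata2 was at 1.09 and 7.28 RPKM, and none of the 5 progenitor genes was called against day 0 (0 higher and 1 lower at an unadjusted p under 0.05, limma). In the same libraries the 8 neutrophil genes (Ltf, Ngp, Mpo, Prtn3, Elane, Camp, S100a8 and S100a9) summed to 42488 and 32494 RPKM. At day 7, the dendritic cell regulator Zbtb46 was at 0.0288 and 0.0283 RPKM and Flt3 at 1.22 and 1.97 RPKM, Xcr1 and Clec9a were at 0 in 1 of the 2 libraries, and Ciita was at 0.930 and 0.305 RPKM, while Itgax was at 24.7 and 25.9 RPKM and Cd209a at 11.8 and 21.5 RPKM. Of the 5 plasmacytoid dendritic cell genes, Bst2, which interferon also induces, was at 613 and 714 RPKM and rose in the second step, Siglech was at 5.44 and 8.22 RPKM, Tcf4 at 8.69 and 8.02 RPKM, Ccr9 at 0.334 and 0.335 RPKM, and Klk1 at 0. In the day 7 libraries the 11 macrophage genes summed to 10205 and 10690 RPKM, against 55.9 to 125 RPKM over the 4 earlier libraries. The groups are called by their day here.

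Depth differed by day. Reads in genes numbered 322837 and 157797 for day 0, 1365635 and 3852628 for day 4, and 16149088 and 10951745 for day 7. A single read in a gene of 1 kb was thus worth 3.10 and 6.34 RPKM at day 0 but 0.0619 and 0.0913 RPKM at day 7. The 2 libraries of a day had Pearson correlations of log2(RPKM + 1) across genes of 0.613 at day 0, 0.889 at day 4 and 0.978 at day 7. Sensory receptor genes (1449 odorant, vomeronasal and trace amine receptors), taken as a measure of reads outside expressed genes, had a pooled level of 8.71 and 8.29 RPKM at day 0, then 4.33 and 0.846 at day 4 and 0.0218 and 0.0236 at day 7. At day 0, 26 of the 45 lysosomal genes lay above that level in both libraries and 11 lay at or below it in both, namely Gla, Glb1, Manba, Naglu, Gaa, Sgsh, Arsa, Smpd1, Pla2g15, Acp2 and Mitf. At day 4, 40 genes lay above it in both libraries, and at day 7 all 45 did.

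As background, lysosomal hydrolases are made in the endoplasmic reticulum, tagged with mannose 6-phosphate in the Golgi and carried to the lysosome, where most of them work only at acid pH. The V-ATPase supplies that acidity: a cytosolic V1 sector splits ATP and a membrane V0 sector moves protons inward. TFEB, TFE3 and MITF are related basic helix-loop-helix factors that bind palindromic E-boxes in the promoters of many lysosomal genes. In macrophages and dendritic cells, lysosomes digest engulfed cells and microbes and prepare peptides for presentation.

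The lysosomal genes took a growing share of the reads. They held 0.348% and 0.390% of reads at day 0 (95% exact binomial intervals 0.328 to 0.369% and 0.360 to 0.422%), 1.04% and 1.39% at day 4, and 2.89% and 2.92% at day 7. These intervals cover counting error only. The shares of the 3 days did not overlap. The median level of the 45 genes was 10.1 and 15.2 RPKM at day 0, 38.8 and 35.0 on day 4, and 79.6 and 71.7 on day 7.

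From day 0 to day 7, 37 of the 45 genes rose and 1, Arsb, fell, where 11.3% of the 19279 genes tested were called higher and 29.3% lower (limma, Benjamini-Hochberg adjusted p under 0.05). The median log2 fold change of the set was 2.35, beside -1.14 over all genes tested. Fold changes are on the log2(RPKM + 1) scale, which understates the change of low genes. The 7 genes not called were Manba, Sgsh, Galns, Smpd1, Lamp2, Tfeb and Tfe3. RNA came from whole populations, so a change in the proportion of a cell type and a change in RNA per cell cannot be told apart.

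Taken by step, 14 genes rose and 1, Acp5, fell from day 0 to day 4, where 3.66% of all genes tested were called higher and 1.92% lower. From day 4 to day 7, 13 genes rose and none fell, where 5.85% of all genes were called higher and 6.75% lower. At an unadjusted p under 0.05, 25 lysosomal genes were higher and 2 lower in that second step in limma, and voom on the recovered reads called 28 higher and 3 lower. The shares of all genes above belong to the main fit at an adjusted p under 0.05. No such share was computed for the unadjusted threshold, for voom or for fits without a library, so those counts stand without a comparison. The median log2 fold change of the set was 1.16 in the first step (all genes -0.40) and 1.18 in the second (all genes -0.81). With either day 4 library left out, limma called 0 lysosomal genes in either step, although 23 or 22 were higher and 2 lower at an unadjusted p under 0.05 in the first step, and 18 or 21 were higher and 3 or 0 lower in the second.

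One gene, Atp6v0e, rose in both steps. Another 12 were called higher in the first step and over the whole course but not in the second step: Hexa, Neu1, Ppt1, Tpp1, Grn, Scarb2, Mcoln1, Atp6ap1, Atp6v0b, Atp6v0d1, Atp6v1b2 and Atp6v1e1. A further 11 were called higher in the second step and over the whole course but not in the first: Gusb, Man2b1, Naglu, Ids, Psap, Gm2a, Pla2g15, Lgmn, Acp2, Lamp1 and Atp6v0d2. The difference between the steps was not tested for any gene. Another 12 genes were called higher over the whole course and in neither step. The mean level was highest at day 7 for 36 genes, at day 4 for 8 (Neu1, Manba, Ppt1, Lamp2, Mcoln1, Atp6ap1, Tfeb and Tfe3) and at day 0 for Arsb.

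**Figure D1:**
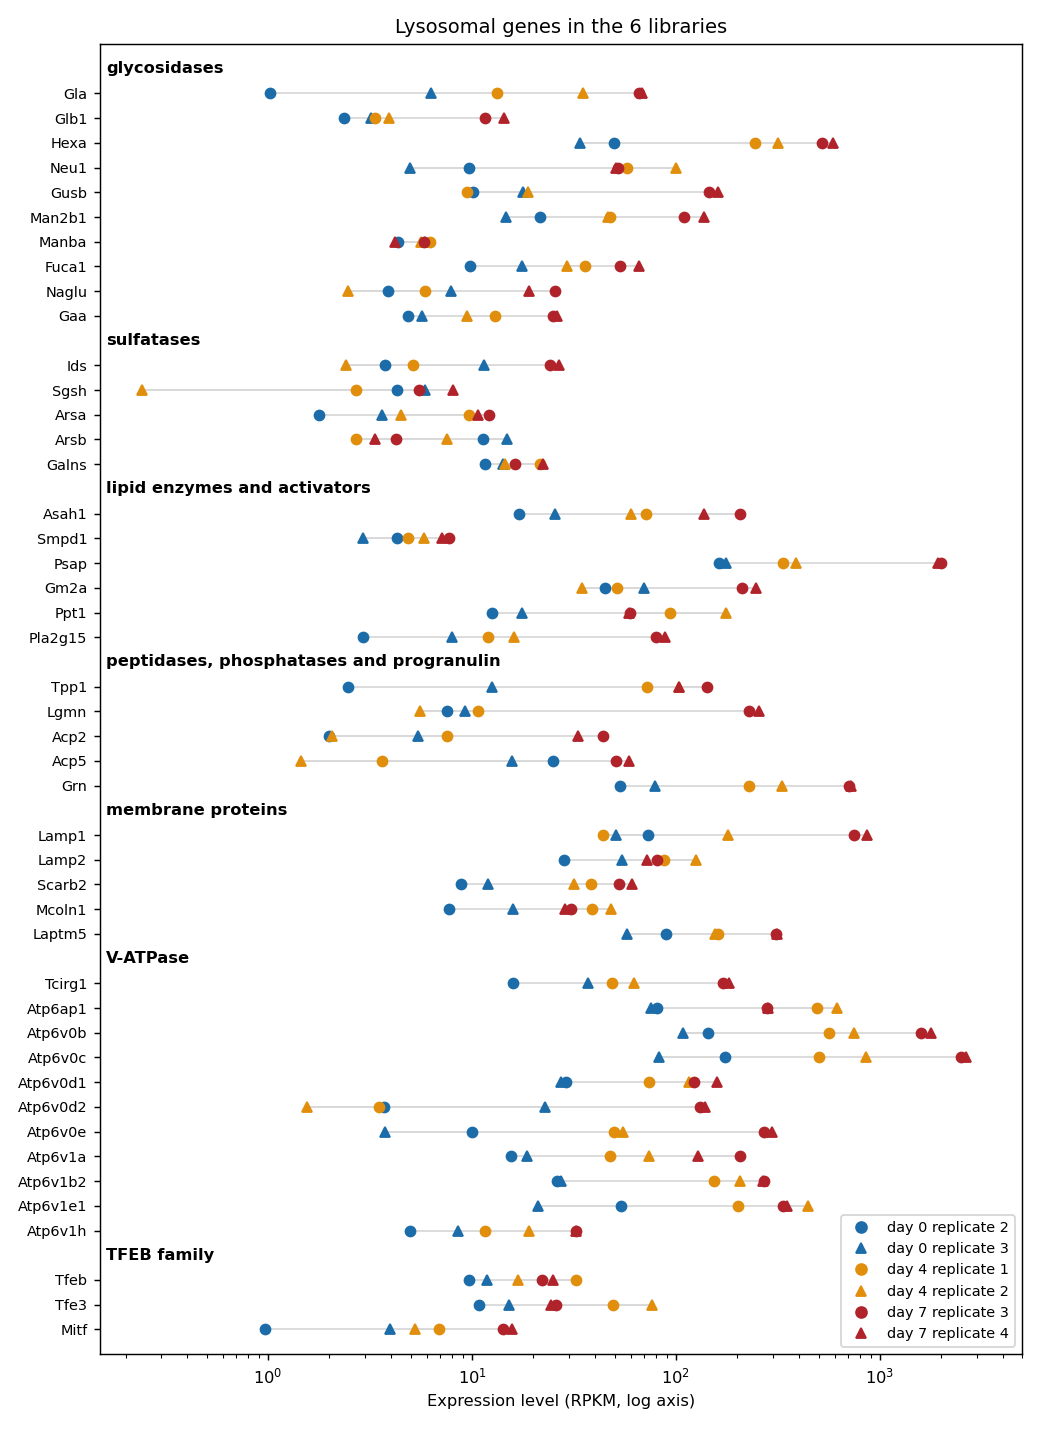
Level of each of the 45 genes (RPKM, log axis) in each library, grouped by role; circles and triangles are the 2 libraries of a day. Most day 7 points lie at the right end of a gene's range, and Arsb is the only gene with both day 0 points at the right end.

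Depth, the sensory receptor level and the markers of other cells moved with the day. Between day 4 and day 7, 10 of 11 macrophage genes were called higher and all 8 neutrophil genes lower, and between day 0 and day 4 all 6 red cell genes were called lower. The neutrophil genes summed to 62775 and 7582 RPKM at day 0 and to 62.8 and 55.5 RPKM at day 7. The red cell genes summed to 31862 and 19808 RPKM at day 0, against 1672 and 1822 at day 4 and 3.58 and 6.96 at day 7. Their part in the rise of the lysosomal genes was not tested. An alternative added after the data were seen subtracted the receptor level from every gene. Under it, 34 lysosomal genes were called higher and 0 lower from day 0 to day 7. Of these 34, 30 were among those called without the subtraction. Levels that fell under 0 were set to 0. The 11 lysosomal genes at or below the receptor level in both day 0 libraries therefore could not fall from day 0. The median log2 fold change over all genes tested was 0.27 with the subtraction, beside -1.14 without it. The share of all genes called under it was not computed.

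The transcription factors of the set are the 3 TFEB family genes, and whether they act on the other genes here was not tested. Tfe3, which like TFEB is held in the cytosol while nutrients are plentiful, was at 10.8 and 15.2 RPKM at day 0, followed by 49.2 and 76.3 at day 4 and by 25.7 and 24.3 at day 7. It was higher at day 4 than in every library of the other days, and rose by 2.17 ± 0.39 (log2 fold change ± SE, adjusted p = 0.0232, limma) in the first step. Its day 7 level was not called against day 4 (-1.26 ± 0.39, adjusted p = 0.0733, limma). It was called lower there when only the 4 libraries of those days were fitted, with voom and with a filter at 5 RPKM. Both fits that left out a day 0 library also called it lower. Tfeb, the best known activator of lysosomal genes, was at 9.61 and 11.8 RPKM at day 0, 32.5 and 16.8 after 4 days and 22.1 and 24.9 after 7 days, and passed the test in no comparison (day 7 against day 0: 1.07 ± 0.42, adjusted p = 0.0724, limma). That comparison was called when only the 4 libraries of those days were fitted (adjusted p = 0.0427), with median-ratio scaling (0.0221), with the receptor level subtracted (0.036) and without either day 4 library (0.0443 and 0.0429), and was not called under the other 12 alternatives, where adjusted p reached 0.332. Both of its day 0 values lay below the other 4, and those of day 4 lay on either side of day 7. Mitf, the member of the family needed in pigment cells and osteoclasts, was read at 0.971 and 3.97 RPKM at day 0 from 2 and 4 reads, at 6.89 and 5.25 RPKM at day 4, and at 14.2 and 15.7 RPKM at day 7. The 3 days did not overlap for Mitf, and it rose over the whole course (2.35 ± 0.54, adjusted p = 0.0161, limma). Both day 0 values of Mitf lay below the sensory receptor level of their library.

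The promoters were searched for the palindromic E-boxes that this family can bind. Promoter sequences, 250 bases before to 50 after the transcript start, were found for 40 of the 45 genes in RefSeq (GRCm38.p6, a later build than the mm9 named in the submitters' processing notes; the expression table holds no coordinates). The genes without an entry were Atp6v1b2, Atp6v0d2, Asah1, Atp6v1h and Galns. The motif searched was CACGTG, which reads the same on both strands, and TCACGTGA, a longer palindrome that contains it. CACGTG occurred in 13 of the 40 genes (32.5%), against 8.09% of the 27025 genes in the RefSeq table, and TCACGTGA in 5 (12.5%, against 1.12%). A match is a description of these letters and not a measured binding site, and it does not tell which protein could bind there. By role, the core was found in 4 of 10 glycosidases, 2 of 4 sulfatases, 0 of 5 lipid enzymes and activators, 1 of 5 peptidases, phosphatases and progranulin, 2 of 5 membrane proteins, 4 of 8 V-ATPase genes and 0 of 3 TFEB family genes.

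The stretches below show the E-boxes in capitals in the promoters with most of them (Lamp1, Mcoln1, Atp6v0b and Gla), with the long palindrome of Atp6v1a and the single core of Naglu, and beside them the same region of Psap, one of the most abundant of the 45, with no core in its window. Lamp1 is read from chr8:13159081-13159160 on the plus strand, Mcoln1 from chr8:3500429-3500518 (plus), Atp6v0b from chr4:117887330-117887389 (minus), Gla from chrX:134601186-134601245 (minus), Atp6v1a from chr16:44139350-44139409 (minus), Naglu from chr11:101070004-101070063 (plus) and Psap from chr10:60277548-60277627 (plus), all in GRCm38.p6 and upstream of the annotated start, printed 5′ to 3′ on the gene's strand.
Lamp1: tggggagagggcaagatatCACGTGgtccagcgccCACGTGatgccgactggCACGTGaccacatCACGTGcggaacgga
Mcoln1: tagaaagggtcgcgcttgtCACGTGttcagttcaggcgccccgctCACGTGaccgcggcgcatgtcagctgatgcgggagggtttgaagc
Atp6v0b: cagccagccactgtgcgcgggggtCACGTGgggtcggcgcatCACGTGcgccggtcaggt
Gla: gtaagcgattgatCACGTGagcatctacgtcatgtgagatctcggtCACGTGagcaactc
Atp6v1a: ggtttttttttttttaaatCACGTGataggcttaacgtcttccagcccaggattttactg
Naglu: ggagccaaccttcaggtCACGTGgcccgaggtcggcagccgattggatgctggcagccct
Psap: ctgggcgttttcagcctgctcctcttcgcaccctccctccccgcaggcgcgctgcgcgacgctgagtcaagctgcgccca
In Lamp1 the 4 cores start at -61, -45, -28 and -15, counted from the transcript start. Mcoln1 has its cores at -71 and -45, the second within the longer palindrome. Both cores of Gla lie far upstream, at -227 and -194, and both are within the longer palindrome. Those of Atp6v0b start at -36 and -18.

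**Figure D2:**
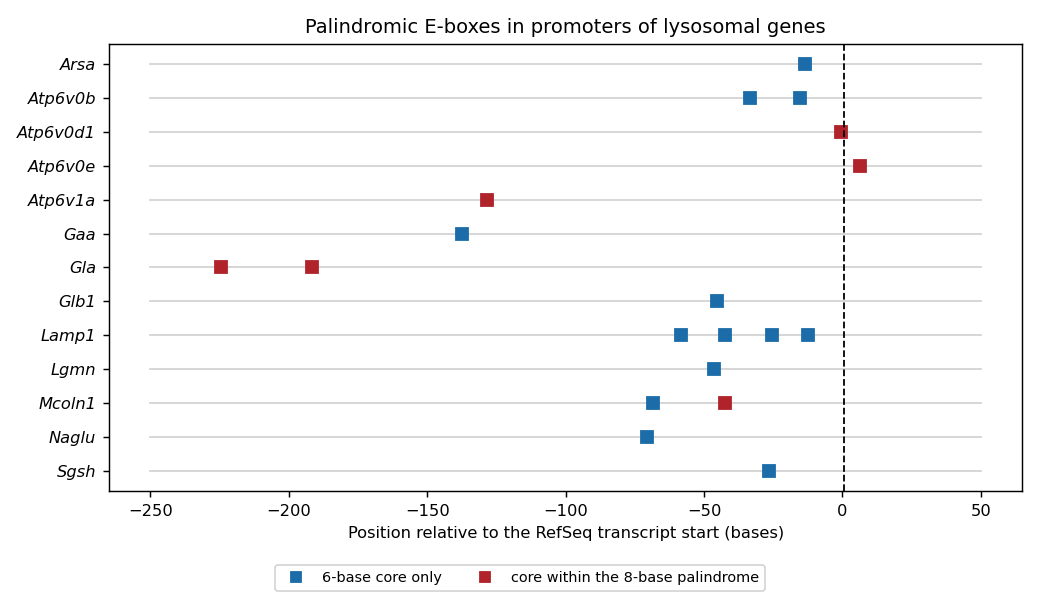
Position of each palindromic E-box core relative to the RefSeq transcript start (dashed line) in the 13 promoters that hold one; each grey line is the searched window. Lamp1 has 4 cores between -61 and the start, and the 6 cores within the longer palindrome are spread from Gla at -227 to Atp6v0e at 4.

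Genes with and without the core were both among those called. In the first step 4 of 13 genes with the core rose, beside 9 of 27 without it, and in the second step 4 of 13 beside 8 of 27. Over the whole course 12 of 13 with the core rose, beside 21 of 27 without it. The difference was not tested. Sgsh is the gene with a core that was called in no comparison.

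The proton pump is the largest of the classes. All 11 V-ATPase genes rose from day 0 to day 7 (median log2 fold change 3.29), 6 rose in the first step and 2 in the second. Their summed level was 557 and 432 RPKM at day 0, then 2151 and 3191 at day 4 and 5916 and 6256 at day 7.

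In the membrane sector, Atp6v0c encodes the main proteolipid of the rotating ring. It was at 175 and 82.5 RPKM at day 0, 504 and 853 on day 4, and 2509 and 2642 on day 7, where it was the most abundant of the 45 genes. The 3 days did not overlap, and it rose by 4.41 ± 0.63 over the whole course (adjusted p = 0.00308, limma), while neither step was called (adjusted p = 0.0628 and 0.0811). Atp6v0c has processed pseudogene copies in the mouse genome, and how the authors' counting split reads among them is not given in the sources used here, so its level is uncertain. Atp6v0b, the second ring proteolipid, was at 143 and 108 RPKM at day 0, against 562 and 746 at day 4 and 1593 and 1779 at day 7. It rose in the first step (2.37 ± 0.54, adjusted p = 0.046, limma) and over the whole course (3.75 ± 0.54, adjusted p = 0.00321).

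Atp6v0e, which encodes the small e subunit, had a level of 10.0 and 3.74 RPKM at day 0 from 11 and 2 reads, then 49.4 and 55.2 RPKM at day 4 and finally 271 and 295 RPKM at day 7. It is the gene called in both steps, by 2.88 ± 0.46 (adjusted p = 0.0171, limma) and then 2.41 ± 0.46 (adjusted p = 0.0126). Over the whole course it rose by 5.29 ± 0.46 (adjusted p = 0.00043, limma), the largest log2 fold change among the 45. Tcirg1, the a3 subunit that is abundant in osteoclasts and macrophages, was at 15.9 and 36.9 RPKM at day 0, followed by 48.4 and 62.4 at day 4 and by 170 and 181 at day 7. Its 3 days did not overlap, and it was called over the whole course (2.81 ± 0.46, adjusted p = 0.00522, limma).

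The d subunit, which joins the membrane sector to the stalk, is encoded by a pair of genes with unlike courses. Atp6v0d1, the widely expressed one, was at 28.7 and 27.4 RPKM at day 0, 73.8 and 116 after 4 days and 122 and 158 after 7 days, and rose in the first step (1.69 ± 0.40, adjusted p = 0.0487, limma). Atp6v0d2, known from osteoclasts and macrophages, was at 3.71 and 22.8 RPKM at day 0 from 3 and 9 reads, 3.51 and 1.56 at day 4, and 131 and 138 at day 7. Its day 7 libraries lay above all others, and the second step was called (5.32 ± 0.71, adjusted p = 0.00281, limma), the largest change of the 45 in that step. The ratio of Atp6v0d2 to Atp6v0d1 in RPKM was 0.129 and 0.831 at day 0, then 0.0476 and 0.0134 at day 4 and 1.08 and 0.874 at day 7.

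In the cytosolic sector, Atp6v1b2, the B2 subunit of the ATP-splitting head, was at 26.0 and 27.3 RPKM at day 0, 154 and 205 on day 4, and 270 and 268 on day 7. It rose in the first step (2.69 ± 0.38, adjusted p = 0.0127, limma) and over the whole course (3.29 ± 0.38, adjusted p = 0.00136). Its partner in the head, Atp6v1a, was at 15.6 and 18.6 RPKM at day 0, against 47.6 and 73.6 at day 4 and 205 and 129 at day 7, and was called over the whole course (3.18 ± 0.41, adjusted p = 0.00212) and just missed the threshold in the first step (adjusted p = 0.0503). Atp6v1e1, of the peripheral stalk, was called in the first step (3.11 ± 0.58, adjusted p = 0.026, limma), with day 4 libraries at 203 and 445 RPKM on either side of the day 7 levels of 334 and 350 RPKM. Atp6v1h, a regulatory subunit, was at 4.99 and 8.51 RPKM at day 0, followed by 11.6 and 19.1 at day 4 and by 32.5 and 32.3 at day 7.

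Atp6ap1, an accessory protein needed to assemble the pump, was the member with its highest level at day 4. It was at 80.7 and 75.3 RPKM at day 0, 493 and 614 after 4 days and 278 and 284 after 7 days, so the days did not overlap. It rose in the first step (2.80 ± 0.43, adjusted p = 0.0158, limma). The day 7 difference from day 4 was -0.97 ± 0.43 (adjusted p = 0.18, limma). It was called lower under quantile normalization, with voom and when only the 4 libraries of those days were fitted. Both fits that left out a day 0 library also called it lower. Quantile normalization called 4 of the 45 higher and 1 lower in that step.

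**Figure D3:**
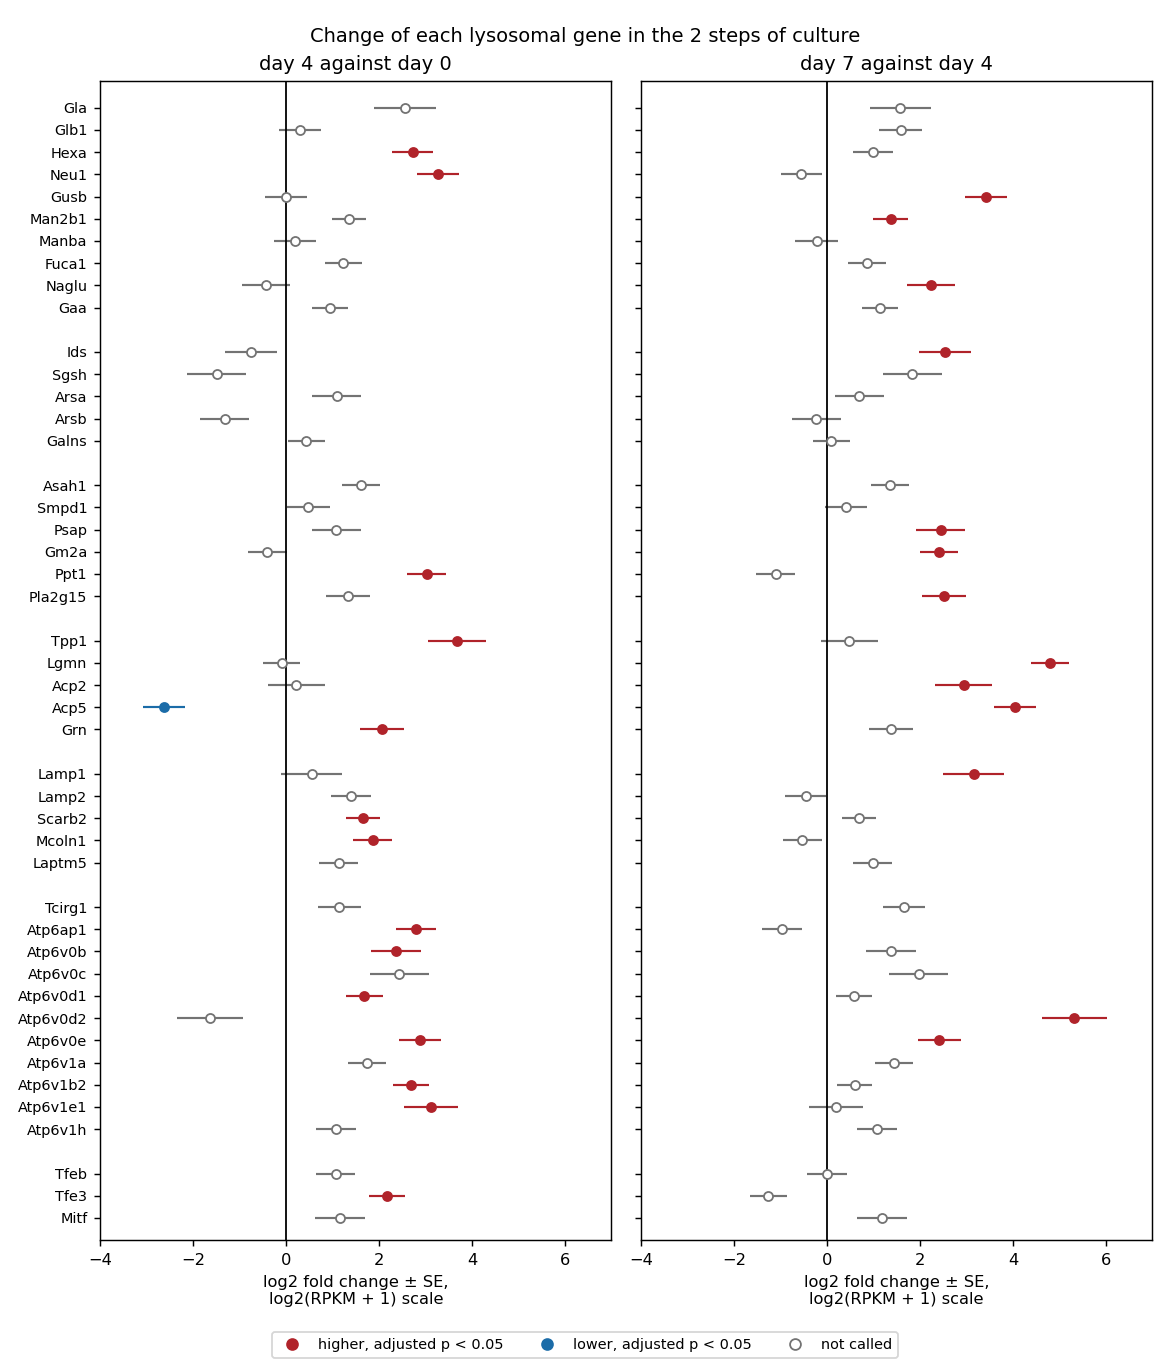
log2 fold change ± SE of each gene in the first step (left) and the second step (right), on the log2(RPKM + 1) scale; filled points passed an adjusted p of 0.05. Of the 11 V-ATPase genes, 6 are filled on the left and 2 on the right, where Atp6v0d2 lies farthest out at 5.32.

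Among the membrane proteins 4 of 5 rose from day 0 to day 7, 2 in the first step and 1 in the second. Lamp1, the heavily glycosylated protein that coats the inner face of the lysosomal membrane, was at 73.0 and 50.7 RPKM at day 0, then 44.1 and 181 at day 4 and 746 and 867 at day 7. The day 4 libraries lay on either side of day 0, and the second step was called (3.15 ± 0.65, adjusted p = 0.0176, limma). Its relative Lamp2, which also serves chaperone-mediated autophagy, was at 28.2 and 54.4 RPKM at day 0, 87.4 and 126 on day 4, and 80.3 and 71.7 on day 7. All 4 cultured libraries lay above day 0 for Lamp2, yet no comparison was called (adjusted p = 0.102 for the first step, limma). In RPKM, the levels of Lamp1 and Lamp2 overlapped at days 0 and 4, and Lamp1 was higher in both libraries of day 7.

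Scarb2, an abundant glycoprotein of the lysosomal membrane, was at 8.81 and 12.01 RPKM at day 0, against 38.2 and 31.5 at day 4 and 52.7 and 60.6 at day 7. The 3 days did not overlap, and the gene rose in the first step (1.66 ± 0.36, adjusted p = 0.0407, limma) and over the whole course (2.35 ± 0.36, adjusted p = 0.00421). Mcoln1, a calcium release channel of the lysosomal membrane, was at 7.74 and 15.8 RPKM at day 0, followed by 38.8 and 48.0 at day 4 and by 30.5 and 28.5 at day 7. Its highest values were those of day 4, and it rose in the first step (1.86 ± 0.42, adjusted p = 0.0449, limma) and over the whole course (1.33 ± 0.42, adjusted p = 0.0378). Laptm5, a lysosomal protein of blood cells, was at 88.9 and 57.3 RPKM at day 0, 161 and 155 after 4 days and 311 and 314 after 7 days, and was called over the whole course (2.11 ± 0.42, adjusted p = 0.01, limma).

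The glycosidases, which remove sugars from glycoproteins, glycolipids and glycosaminoglycans, rose in 9 of 10 cases from day 0 to day 7 (median log2 fold change 2.40), 2 of them in the first step and 3 in the second. Hexa, the alpha subunit of beta-hexosaminidase that degrades the ganglioside GM2, was the most abundant. It was at 49.8 and 34.0 RPKM at day 0, then 245 and 316 at day 4 and 517 and 592 at day 7, and rose in the first step (2.73 ± 0.44, adjusted p = 0.0179, limma) and over the whole course (3.72 ± 0.44, adjusted p = 0.00145). Neu1, a sialidase, was at 9.65 and 4.94 RPKM at day 0, 57.2 and 100.2 on day 4, and 51.7 and 51.0 on day 7. It had the smallest adjusted p of the first step (3.27 ± 0.44, adjusted p = 0.012, limma), and both day 7 values lay below both day 4 values.

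Gusb, the beta-glucuronidase, behaved otherwise. It was at 10.1 and 17.8 RPKM at day 0, against 9.40 and 18.9 at day 4 and 146 and 161 at day 7. Days 0 and 4 overlapped, and the second step was called (3.42 ± 0.45, adjusted p = 0.00276, limma). Man2b1, an alpha-mannosidase, was at 21.5 and 14.7 RPKM at day 0, followed by 47.4 and 46.4 at day 4 and by 110 and 137 at day 7, and was called in the second step (1.37 ± 0.37, adjusted p = 0.0484, limma) but not in the first (1.35 ± 0.37, adjusted p = 0.0728). Naglu, which acts on heparan sulfate, was at 3.87 and 7.92 RPKM at day 0, 5.86 and 2.47 after 4 days and 25.5 and 18.9 after 7 days, and was called in the second step (2.24 ± 0.52, adjusted p = 0.0284, limma).

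Gla, the alpha-galactosidase, rested on 1 and 3 reads at day 0. Its levels were 1.02 and 6.27 RPKM there, 13.3 and 35.0 at day 4, and 65.7 and 67.8 at day 7. The days did not overlap, and it was called over the whole course (4.14 ± 0.66, adjusted p = 0.00471, limma) and in neither step. Glb1, Fuca1 and Gaa, which remove galactose, fucose and glucose, were also called over the whole course alone, with log2 fold changes of 1.88 ± 0.45, 2.09 ± 0.40 and 2.09 ± 0.39. At day 7 their levels were 11.5 and 14.3 RPKM for Glb1, 53.3 and 66.0 for Fuca1, and 24.9 and 26.2 for Gaa. Manba, the beta-mannosidase, went against the class: it was at 4.33 and 5.91 RPKM at day 0, then 6.26 and 5.60 at day 4 and 5.81 and 4.18 at day 7, and all 3 days overlapped (day 7 against day 0: -0.03 ± 0.46, adjusted p = 0.968, limma). Its day 0 values lay below the receptor level, and with that level subtracted the difference was 2.57 (adjusted p = 0.0465, limma). The day 0 values of Gla, Glb1, Naglu and Gaa also lay below the receptor level in both libraries.

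The sulfatases were the class with the smallest median change, 0.53 on the log2 scale from day 0 to day 7, with 2 of 5 called higher and 1 lower. Ids, which removes sulfate from heparan and dermatan sulfate, was at 3.74 and 11.5 RPKM at day 0, 5.15 and 2.40 on day 4, and 24.2 and 26.8 on day 7. Days 0 and 4 overlapped, and the second step was called (2.53 ± 0.56, adjusted p = 0.0233, limma). Arsa, which acts on sulfatide, was at 1.77 and 3.63 RPKM at day 0 from 2 reads in each library, 9.65 and 4.46 at day 4, and 12.1 and 10.7 at day 7, and rose over the whole course (1.79 ± 0.52, adjusted p = 0.0297, limma).

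Arsb, a sulfatase of dermatan and chondroitin sulfate, was the gene of the 45 that fell over the whole course. It was at 11.4 and 14.8 RPKM at day 0 from 22 and 14 reads, 2.69 and 7.54 at day 4, and 4.25 and 3.35 at day 7. Both day 0 libraries lay above the other 4 (day 7 against day 0: -1.55 ± 0.53, adjusted p = 0.0466, limma), and the call was lost under 7 other settings and in 4 of the 6 fits without 1 library. Its day 0 levels stood beside receptor levels of 8.71 and 8.29 RPKM in the same libraries, and subtracting these removed the call. Sgsh, a sulfamidase of heparan sulfate, was at 4.30 and 5.86 RPKM at day 0, against 2.71 and 0.240 at day 4 and 5.47 and 8.09 at day 7; it lay at or below the receptor level in both libraries of days 0 and 4. Galns was at 11.6 and 14.2 RPKM at day 0, followed by 21.6 and 14.4 at day 4 and by 16.2 and 22.2 at day 7, with days 4 and 7 overlapping and no call.

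The lipid enzymes and activators rose in 5 of 6 cases from day 0 to day 7 (median log2 fold change 2.48), 1 in the first step and 3 in the second. Psap encodes prosaposin, the precursor of the saposins that present sphingolipids to their enzymes. It was the most abundant of the 45 genes at day 0, at 162 and 177 RPKM, and was at 336 and 386 RPKM at day 4 and at 1991 and 1937 RPKM at day 7. The days did not overlap, and the second step was called (2.44 ± 0.52, adjusted p = 0.0199, limma) while the first was not (1.08 ± 0.52, adjusted p = 0.231). Gm2a, the activator protein that lifts GM2 out of the membrane for beta-hexosaminidase, was at 45.05 and 69.9 RPKM at day 0, 51.4 and 34.6 after 4 days and 212 and 246 after 7 days. It was called in the second step (2.41 ± 0.41, adjusted p = 0.00868, limma), whereas Hexa, which works with it, was called in the first. The lysosomal phospholipase Pla2g15 was at 2.93 and 7.98 RPKM at day 0 from 3 and 4 reads, 11.99 and 16.1 at day 4, and 79.6 and 88.6 at day 7, and rose in the second step (2.51 ± 0.47, adjusted p = 0.012, limma) and over the whole course (3.84 ± 0.47, adjusted p = 0.00165).

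Ppt1, a thioesterase that removes palmitate from proteins, was at 12.5 and 17.7 RPKM at day 0, then 93.4 and 175 at day 4 and 59.2 and 58.6 at day 7. It rose in the first step (3.02 ± 0.42, adjusted p = 0.0122, limma), and the day 7 difference from day 4 was -1.11 ± 0.42 (adjusted p = 0.13, limma), although both day 7 values lay below both day 4 values. Asah1, the acid ceramidase, was at 17.0 and 25.5 RPKM at day 0, 71.6 and 59.9 on day 4, and 207 and 137 on day 7, and was called over the whole course alone (2.96 ± 0.41, adjusted p = 0.00248, limma). Smpd1, the acid sphingomyelinase, was at 4.26 and 2.91 RPKM at day 0, against 4.87 and 5.84 at day 4 and 7.73 and 7.10 at day 7. Its days did not overlap, but no comparison was called (day 7 against day 0: 0.89 ± 0.46, adjusted p = 0.146, limma), and its day 0 values lay below the receptor level.

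**Figure D4:**
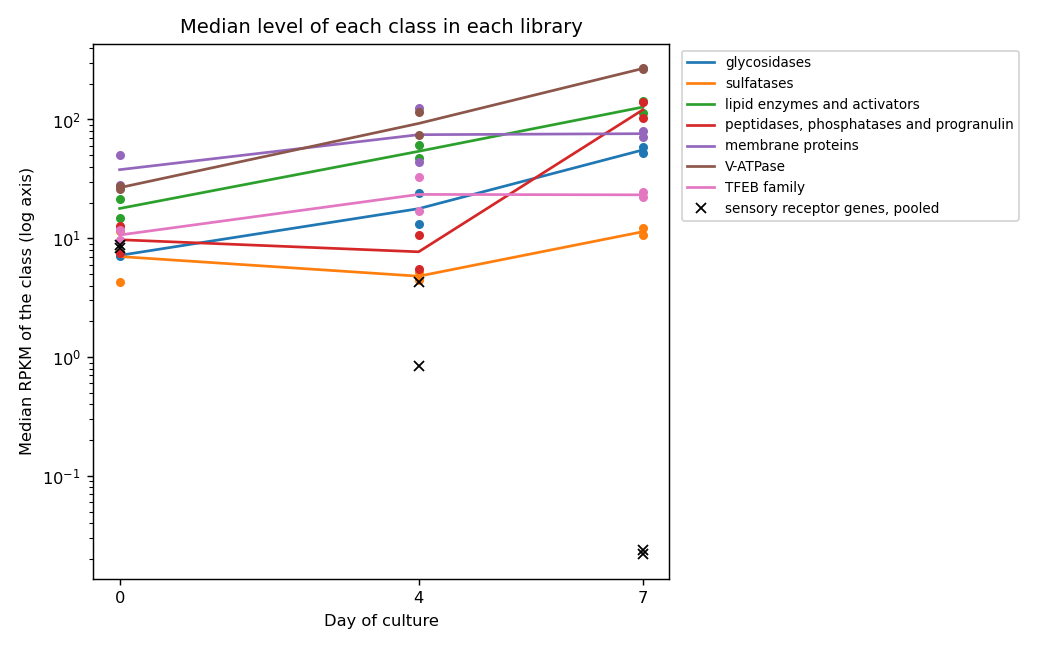
Median RPKM of each class in each library (points; log axis) against the day of culture, with lines through the geometric mean of the 2 libraries and crosses for the pooled sensory receptor genes. The V-ATPase median went from 26.0 and 27.3 RPKM at day 0 to 270 and 268 at day 7. The sulfatase median stayed between 4.30 and 12.1 RPKM. At day 0 the crosses were at 8.71 and 8.29 RPKM. The glycosidase median (7.26 and 7.10) lay below them, and the sulfatase median (4.30 and 11.5) lay on either side. Those of the TFEB family (9.61 and 11.8) and of peptidases, phosphatases and progranulin (7.52 and 12.6) were also close.

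All 5 peptidases, phosphatases and progranulin rose from day 0 to day 7 (median log2 fold change 3.44). Tpp1, a tripeptidyl peptidase, was at 2.46 and 12.6 RPKM at day 0 from 4 and 10 reads, 72.0 and 104 at day 4, and 141 and 103 at day 7, and rose in the first step (3.67 ± 0.62, adjusted p = 0.0198, limma). Days 4 and 7 overlapped. Grn, progranulin, whose granulin peptides are released in the lysosome, was at 53.1 and 78.8 RPKM at day 0, followed by 227 and 330 at day 4 and by 703 and 719 at day 7, and rose in the first step (2.06 ± 0.47, adjusted p = 0.0449, limma) and over the whole course (3.44 ± 0.47, adjusted p = 0.00241).

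Lgmn, legumain, an asparaginyl endopeptidase that processes antigens and other lysosomal proteases, had the smallest adjusted p of the 45 in the second step. It was at 7.52 and 9.23 RPKM at day 0 from 5 and 3 reads, 10.7 and 5.55 at day 4, and 229 and 256 at day 7. Days 0 and 4 overlapped, and the second step was 4.80 ± 0.41 (adjusted p = 0.000449, limma); among the second-step calls it alone was kept under all 11 other settings, though not with a day 4 library left out. Acp2, the lysosomal acid phosphatase, was at 2.00 and 5.45 RPKM at day 0, 7.55 and 2.06 after 4 days and 44.1 and 33.3 after 7 days, and was called in the second step (2.94 ± 0.61, adjusted p = 0.0179, limma).

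Acp5, the tartrate-resistant acid phosphatase of osteoclasts and macrophages, was the gene that fell and then rose. It was at 24.9 and 15.7 RPKM at day 0 from 13 and 4 reads, 3.63 and 1.45 at day 4 from 8 and 9 reads, and 50.6 and 59.1 at day 7. The 3 days did not overlap: the first step was -2.63 ± 0.46 (adjusted p = 0.0209, limma) and the second 4.05 ± 0.46 (adjusted p = 0.00135). The receptor level fell in the first step too, from 8.71 and 8.29 to 4.33 and 0.846 RPKM. The level of 3.63 RPKM in day 4 replicate 1 lay below that of its library. Acp5 was also called lower in that step with the receptor level subtracted, and the part of that level in the fall was not tested. Osteoclast markers were given beside Acp5, Atp6v0d2 and Tcirg1 because osteoclasts use all 3. At day 7, Oscar and Calcr were at 0 in both libraries, Ocstamp at 0.222 and 0 RPKM and Mmp9 at 0.848 and 0 RPKM. The protease gene Ctsk was at 31.3 and 29.8 RPKM. Against day 0, Ctsk was called higher and Mmp9, Oscar, Ocstamp and Calcr lower (limma), while Dcstamp and Nfatc1 were not called. The sums that follow include Dcstamp and Nfatc1. The 7 osteoclast genes summed to 43.7 and 34.4 RPKM at day 7, against 188 and 175 at day 0 and 1014 and 567 at day 4, where Mmp9, also a neutrophil granule gene, made up most of the sum.

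**Figure D5:**
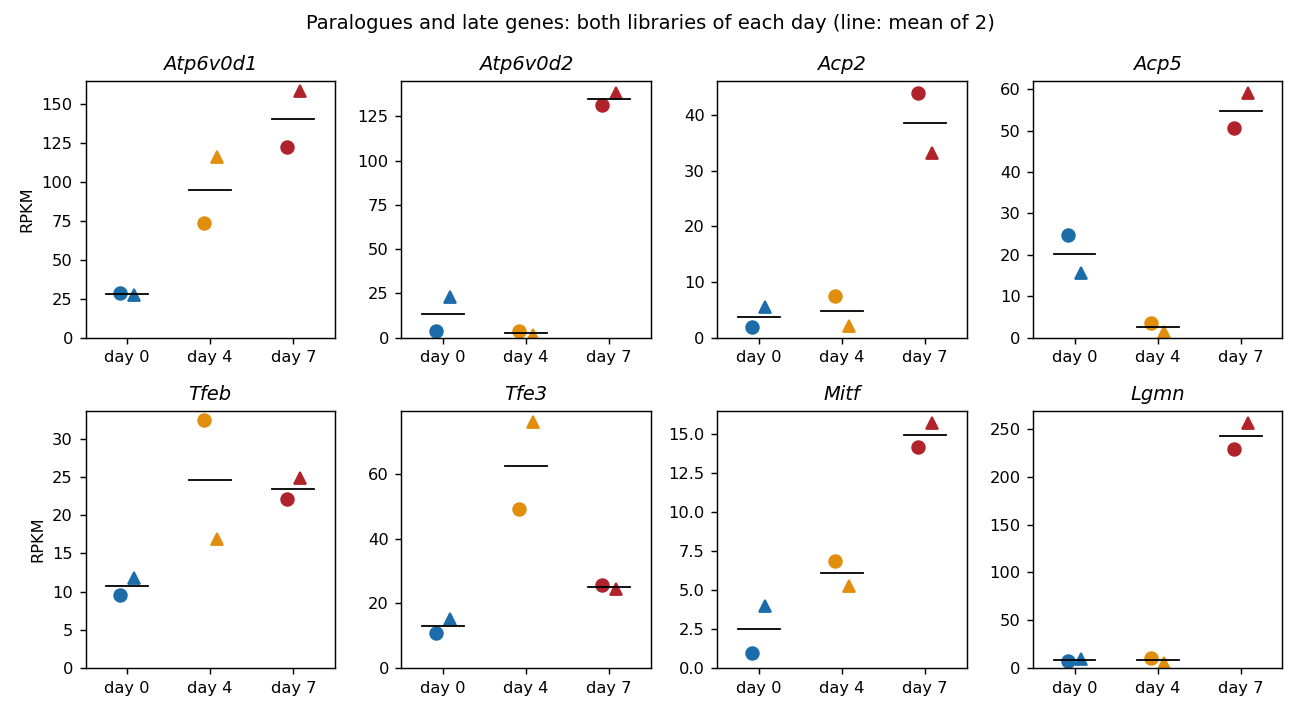
RPKM of 8 genes in both libraries of each day (circles and triangles; bars are means of 2, each axis starts at 0). Atp6v0d2, Acp2, Acp5 and Lgmn stand highest at day 7 with day 4 levels under 11 RPKM, whereas Tfe3 is highest at day 4, at 49.2 and 76.3 RPKM.

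Other genes of the pathway, from lists drawn up with earlier results of these data known, gave a wider view. Of 28 other hydrolases and cofactors, 27 were tested: 5 rose and 1 fell in the first step, 7 rose and 0 fell in the second (13 and 4 at an unadjusted p under 0.05, limma), and 16 rose and 1 fell over the whole course. Lipa, the acid lipase that frees cholesterol from its esters, was at 8.06 and 2.06 RPKM at day 0, then 68.6 and 100.2 at day 4 and 838 and 823 at day 7. It rose by 7.30 ± 0.54 over the whole course (adjusted p = 0.000296, limma). Its day 0 levels came from 8 and 1 reads and lay below the receptor levels of 8.71 and 8.29 RPKM, so the size of that change is uncertain. Npc2, a cholesterol carrier of the lysosomal lumen, was at 40.6 and 55.8 RPKM at day 4 and 613 and 632 at day 7 (second step 3.68 ± 0.40, adjusted p = 0.00121, limma). Ifi30, a thiol reductase that opens disulfide bonds of antigens, was called lower and then higher, as was Acp5. It was at 15.8 and 25.8 RPKM at day 0 from 5 and 4 reads, 6.72 and 4.76 on day 4 from 9 and 18 reads, and 289 and 298 on day 7. It fell by 1.67 ± 0.39 in the first step (adjusted p = 0.0487, limma) before a rise of 5.46 ± 0.39 (adjusted p = 0.000274). The receptor level fell in that first step too, from 8.71 and 8.29 to 4.33 and 0.846 RPKM, and its part was not tested. Scpep1 was another leading call of the second step (3.24 ± 0.36). Arsg was the gene lower over the whole course (-2.49 ± 0.72, adjusted p = 0.029, limma). Its day 0 levels of 4.56 and 5.60 RPKM, from 5 and 3 reads, lay below the receptor levels of 8.71 and 8.29 RPKM. At day 7 it was at 0.164 and 0 RPKM, and the part of the receptor level in the fall was not tested.

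Of 23 other membrane proteins, 4 rose and 1 fell in the first step, 6 rose and 1 fell in the second, and 13 rose and 0 fell over the whole course (14 and 0 at an unadjusted p under 0.05, limma). Cd68, a macrophage glycoprotein of the LAMP family, was at 15.0 and 17.6 RPKM at day 0, against 171 and 88.4 at day 4 and 2009 and 2306 at day 7, and rose in both steps (2.85 ± 0.47, adjusted p = 0.0186, and 4.12 ± 0.47, adjusted p = 0.00136, limma). Slc11a1, which exports metal ions from the phagosome, also rose in both steps (2.47 ± 0.39, adjusted p = 0.0164, and 1.47 ± 0.39, adjusted p = 0.0428, limma). Cln3 rose in the first step (2.86 ± 0.51), and Laptm4a and Slc15a3 in the second (2.82 ± 0.40 and 3.32 ± 0.53). The genes that fell were Tpcn1, a channel of endolysosomes, in the first step (-2.53 ± 0.50, adjusted p = 0.0298, limma), and Cd164 in the second (-1.69 ± 0.37, adjusted p = 0.0226).

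Of 14 other V-ATPase genes, 11 were tested. In the first step 4 rose, led by Atp6v1d, Atp6v1g1 and Atp6ap2 (2.76 ± 0.37, 2.60 ± 0.46 and 2.11 ± 0.45), and none fell. None was called in the second step (1 higher and 2 lower at an unadjusted p under 0.05, limma), and over the whole course 6 rose and 2 fell. The 2 that fell were Atp6v1c2 and Atp6v0a4, both known from epithelia. Atp6v1c2 was read at 6.64 and 10.2 RPKM at day 0 and at 0 at day 7, and Atp6v0a4 at 5.21 and 1.78 RPKM at day 0 and at 0 at day 7; 3 of these 4 day 0 levels lie below the sensory receptor level.

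Delivery of enzymes to the lysosome was followed in 11 genes, of which 0 were called in either step (4 higher in the first and 0 in the second at an unadjusted p under 0.05, limma), and 4 rose over the whole course. Those with the smallest p were Sumf1, which activates all sulfatases (2.01 ± 0.38, adjusted p = 0.00879), the mannose 6-phosphate receptor M6pr (1.81 ± 0.38, adjusted p = 0.0122) and the sorting adaptor Gga1 (1.51 ± 0.40, adjusted p = 0.0228, limma). M6pr was at 55.8 and 62.7 RPKM at day 0, followed by 115 and 136 at day 4 and by 222 and 198 at day 7, with no overlap between days.

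Of 17 genes of nutrient sensing on the lysosomal surface, which control whether TFEB and TFE3 stay in the cytosol, 3 rose in the first step, 2 in the second, and 7 rose and 2 fell over the whole course. Flcn, folliculin, which acts on the Rag GTPases, was at 0.905 and 11.1 RPKM at day 0, 52.8 and 54.3 after 4 days and 18.2 and 19.4 after 7 days (first step 3.51 ± 0.75, adjusted p = 0.0369, limma). Its day 4 libraries were the highest, as for Tfe3. The Rag GTPase gene Rragc and the scaffold gene Lamtor1 rose in the first step (2.40 ± 0.41 and 2.10 ± 0.38), and Rheb and Lamtor5 in the second (2.62 ± 0.49 and 2.73 ± 0.61). Mtor, the kinase itself, was at 10.6 and 11.9 RPKM at day 0, then 3.82 and 2.56 at day 4 and 2.18 and 0.80 at day 7, and fell over the whole course (-2.36 ± 0.53, adjusted p = 0.0145, limma), as did its partner Rptor (-1.59 ± 0.55, adjusted p = 0.0494). The day 0 levels of both were near or below the receptor level of 8.71 and 8.29 RPKM, and the part of that level in the fall was not tested.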

How the data were processed

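Per the labels' protocols, RNA was extracted, prepared with SMARTer and Nextera XT and sequenced. There were 6 libraries, 2 each at day 0, day 4 and day 7. The deposited table gives RPKM per gene over its exons; per the submitters' processing notes, TopHat2 2.0.13, SAMtools 1.1 and the mm9 build were used, while nothing used here states the counter, annotation or strand setting (not given in the sources used here), so antisense or overlapping genes may share reads. All RPKM values were whole multiples of 1 read within 0.01 reads, so depth and reads per gene were recovered from them. Values were tested with limma (version 3.58.1; trend, two-sided) on log2(RPKM + 1) over all 6 libraries, for the 19279 genes with at least 1 RPKM in at least 2 libraries, with 3 residual degrees of freedom and Benjamini-Hochberg adjustment over all of them. A gene was called at an adjusted p under 0.05.

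The 45 genes, their classes and the other lists were chosen with earlier results of these data known. All 45 are named; full statistics go, per class and comparison, to up to 4 called genes with the smallest adjusted p and the 2 most abundant, and from other lists to up to 3 called genes in each direction, apart from further members and markers given by value. Some genes that this rule would name are not reported here. Alternatives were other pseudocounts, filters and scalings, voom on recovered reads, thinning to the smallest library, library weights, fitting 4 libraries, each library left out and, added after the data were seen, subtraction of the sensory receptor level. Promoters came from RefSeq. R, Python 3.11.15, pandas 2.3.3 and matplotlib 3.10.9 were used.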

Additional observations from a re-analysis of the deposited data

How the results depend on the processing

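No paired analysis was possible because any 2 days share at most 1 replicate number, and a block on it leaves no residual degree of freedom. Of the comparisons of day 7 with day 0, 11 of the 38 calls were kept under all 11 other settings and in all 6 fits without 1 library (Hexa, Gusb, Asah1, Tpp1, Lgmn, Grn, Scarb2, Atp6v0c, Atp6v0e, Atp6v1a and Atp6v1b2); of the 15 and 13 calls of the first and second step, 0 were. No called gene changed direction; Manba, not called, turned from -0.03 to 2.57 with the receptor level subtracted, because its day 0 values were below that level.

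For day 4 against day 0, the 14 genes called higher became 4 with voom, 0 with library weights (18 higher and 1 lower at an unadjusted p under 0.05) and 9 with only the 4 libraries of those days; the 1 called lower became 0 with voom, thinning, weights and only 4 libraries. The median of 1.16 became 2.25 with the receptor level subtracted. For day 7 against day 4, the 13 called higher became 4 with quantile normalization, 28 with voom, 3 with thinning and 25 with only 4 libraries; the 0 called lower became 1 with a filter at 5 RPKM, 1 with quantile normalization, 3 with voom and 2 with only 4 libraries. That median of 1.18 became 1.30 and 0.96 with pseudocounts of 0.1 and 5, 1.43 with median-ratio scaling, 0.76 with quantile normalization, 1.35 with voom and 1.40 with subtraction. For day 7 against day 0, the 37 called higher became 22 with quantile normalization and 22 with thinning; the 1 called lower became 0 with a pseudocount of 0.1, no filter, median-ratio scaling, quantile normalization, thinning, weights and subtraction. That median of 2.35 became 2.05 with a pseudocount of 5, 2.73 with median-ratio scaling, 2.05 with quantile normalization and 3.71 with subtraction. The cause of these shifts was not tested, beyond the fewer reads under thinning. The median of all genes moved from -0.40, -0.81 and -1.14 to -0.29, -0.72 and -0.97 with median-ratio scaling and to -0.04, 0.04 and -0.01 with quantile normalization. With the receptor level subtracted, the median of all genes also moved up, to 0.19, 0 and 0.27. The median of the 45 genes stayed above the median of all genes in each of these settings, though single genes did not.

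Without 1 library, the first step had 0 to 22 genes called higher, 0 to 2 lower and a median of 0.93 to 1.62; the 0 came without day 4 replicate 1 or 2, 18 and 22 without day 0 replicate 2 or 3, and 9 without either day 7 library. The second step had 0 to 24 higher and 0 to 2 lower, with 4 without either day 7 library and 24 without either day 0 library. Over the whole course 20 to 37 were higher and 0 to 1 lower, with 23 and 20 without day 7 replicate 3 or 4. Where a day keeps 1 library, that library is assumed to vary like the others. At day 0, each of the 2 libraries had 6 genes with at most 3 reads, of which Gla and Arsa were so low in both, and this limits every comparison with that day.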
